A study of Gallus gallus with 2 samples.

Results

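From primary chicken myoblasts, the authors deposited a list of 3317 places where FOXO1 ChIP tags piled up over input DNA, and 423 of these (12.8%) are described here as higher-tag peaks. They were chosen by 2 measured values, as the peaks with 10 or more ChIP tags (sequenced fragments) and fewer than 2.0 input tags after the authors' scaling of the input to the ChIP depth. The remaining list divides into 2825 lower-tag peaks, with under 10 ChIP tags, and 69 high-input peaks, which had 10 or more ChIP tags and scaled input of 2.0 or more. The study holds 1 FOXO1 ChIP library and 1 input DNA library, both from myoblasts of the thigh of chicken embryos aged 11 days. The cells were grown with 20% fetal bovine serum and then induced to differentiate with 2% horse serum. Both groups share this tissue, age and treatment, and differ in that the input had no antibody. Primary cells enriched for myoblasts by repeated plating can still hold other cell types of the tissue, and ChIP data carry no expression with which to check the cell type.

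FOXO1 is a forkhead transcription factor that acts downstream of insulin and insulin-like growth factor signalling. When the kinase AKT phosphorylates it, it leaves the nucleus, and when it stays in the nucleus it binds DNA and switches on target genes. In skeletal muscle it is known for activating the ubiquitin ligases of muscle atrophy and for a part in myoblast differentiation and fusion. The chicken genome has a few long chromosomes and many short, gene-rich microchromosomes, together with the sex chromosome Z.

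There was no replicate of either library, and the number of ChIP and input tags chose the peaks, so no test was run and no difference below has a replicate check. Intervals are 95% and cover counting error only. They take peaks or tags as independent, which neighbouring peaks and PCR copies are not. The genome build is not given in the sources used here, so coordinates are printed as the file lists them (1-based), and sequences, motifs and nearby genes were not analysed here.

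In a ChIP library of 2207278 tags, for which the header gives 0.400 expected tags per peak, the higher-tag peaks were modest in height. They held 10 to 21 ChIP tags with a median of 11, whereas lower-tag peaks held 5 to 9 with a median of 7. The file header gives a tag threshold of 7.0 for calling a peak, so the lower-tag median stood at the caller's own limit. Of the 423, 181 (42.8%) sat on the limit of 10 tags, 166 held 11 or 12, 48 held 13 or 14, and 28 held 15 or more. A count of 10 has a Poisson interval of 4.80 to 18.4 tags, which takes in the 7 tags of the median lower-tag peak. A single peak just above the limit was therefore not separable in height from one just below it. Together the 423 peaks held 4798 tags, 14.6% of the 32860 tags at all peaks and 0.217% of the 2207278 tags in the ChIP library.

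The input of higher-tag peaks was below the limit by choice, and its level also depends on the caller. The caller kept a peak only where its tags passed its fold and p-value limits against both input and the local 10 kb, so a peak with few ChIP tags could not be listed with as much input or local signal as a taller one. The values of the 2 kinds of peak are therefore given as a description of the list. Whole input tags, recovered from each fold, ranged from 0 to 36 at higher-tag peaks (median 13, interval 13 to 14) and from 0 to 33 at lower-tag peaks (median 11, interval 10 to 11). Input tags are given here and below as counts before scaling to the ChIP depth. Each input tag stood for 0.053 ChIP tags after scaling, so that 36 input tags came to 1.9. Raw ChIP and input counts are therefore not to be compared directly. More input tags than the list's median of 11 were found at 269 of the 423 higher-tag peaks (63.6%), against 1197 of the 2825 lower-tag peaks (42.4%). An input count at or above the list's 95th percentile was found at 42 higher-tag peaks (9.93%) and 55 lower-tag peaks (1.95%). The surroundings in the ChIP library followed the same order, with a median of 0.622 ChIP tags per peak width in the 10 kb around higher-tag peaks (interval 0.601 to 0.663) and 0.559 around lower-tag peaks (0.539 to 0.560). The part of this denser surrounding in the tag number of the peaks was not tested.

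**Figure D1:**
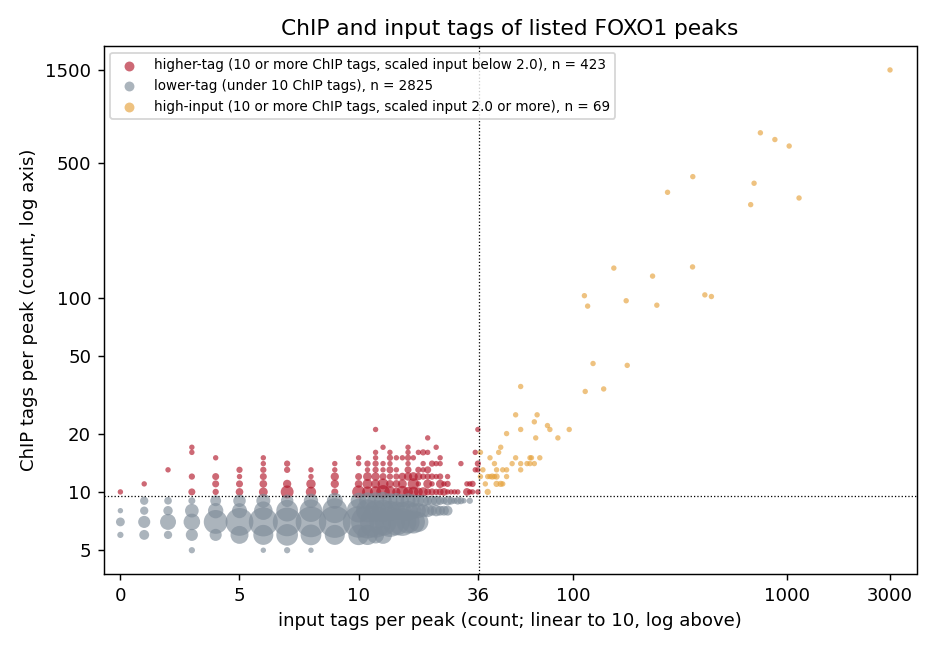
ChIP tags (vertical axis, counts, log scale) against input tags (horizontal axis, counts, linear to 10 and log above) for all 3317 listed peaks, with a larger point where more peaks share the same pair of values. The 423 higher-tag peaks fill the band from 10 to 21 ChIP tags left of the line after 36 input tags, above the 2825 lower-tag peaks, while the 69 high-input peaks run up to 1507 ChIP tags on the right.

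Enrichment over input is described here without a test, since the choice used both of its terms. The median authors' fold over input was 15.73 at higher-tag peaks (interval 14.52 to 16.65, quartiles 11.6 and 23.1) and 13.21 at lower-tag peaks (12.58 to 13.21). With counting error in both libraries, the lower limit of the fold was above 4, the minimum the caller required, at 374 higher-tag peaks (88.4%), against a background of 60.3% of all listed peaks. It was above 8 at 137 higher-tag peaks (32.4%, background 13.3%). A fold of 16 or more was listed for 195 of them (46.1%, background 36.8%). These shares follow from the rule and are no support for it.

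Below the input limit, the median fold was 14.16 at 6 ChIP tags, 12.01 at 7, 13.73 at 8, 13.07 at 9, 14.52 at 10 and 15.97 at 11. Peaks with 6 tags had a median fold close to that of peaks with 10, with a median of 8 input tags against 13. The caller's limits over input bear on these medians, since a peak with fewer ChIP tags needed less input to be listed. Just inside the limits stood the peak on chromosome 13 at 1632433 to 1632635, with 10 ChIP tags against 36 input tags and a 5.24-fold enrichment, the lowest of the 423 (interval 2.32 to 10.8). Just outside on the input side, 12 ChIP tags met 37 input tags on chromosome 12 at 2737234 to 2737436, a fold of 6.12. Just outside on the ChIP side, peaks with 9 ChIP tags and 1 input tag, such as that on chromosome 9 at 11350463 to 11350665, had the highest fold at that count, 169.87 (interval 23.5 to 7446). The authors' score is a second tag measure whose counting the header does not set apart from total tags. The header also gives a maximum of 1.0 tags considered per bp, without naming a measure in that line. The score equalled the total tags at 248 higher-tag peaks (58.6%, all listed peaks 61.8%) and was above them at 121 (28.6%, all listed 33.4%). It was below them at 54 (12.8%, all listed 4.82%) and under 10 at 28 (6.62%, all listed 82.2%). The lowest listed score was 7, the tag threshold of the header, so a peak with 5 to 7 total tags could not have a score below them.

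The 28 tallest higher-tag peaks held 15 to 21 tags. Of these, 7 lay on chromosomes 11 and above (25.0%, interval 10.7 to 44.9), against 36.2% of all listed peaks. Another listed peak within 10 kb was found for 6 of the 28 (21.4%, 8.30 to 41.0), against 13.9% of all listed peaks. Both intervals take in the share of the whole list. On chromosome 1, the peak at 145707537 to 145707739 had 21 ChIP tags against 12 input tags, a 33.03-fold enrichment (interval 15.5 to 73.6), and a score of 21. Its nearest listed neighbour was 15.0 kb away. The peak on chromosome 5 at 2718939 to 2719141 also had 21 ChIP tags, but its score was 13 and its input held 36 tags, so that its fold was 11.01 (6.11 to 19.4). It had the highest clonal fold of the 423, 1.33. The file header words its limit on clonality as a fold under the unique positions expected for the tags. A clonal fold above 1 was found at 5 higher-tag peaks (1.18%), against 28 of all 3317 listed peaks (0.844%). At all 5 the score was below the total tags. The surroundings of this chromosome 5 peak held few ChIP tags, 0.269 per peak width.

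The peak of chromosome 23 from 2500165 to 2500367 held 19 ChIP tags, with 21 in the input, a fold of 17.08 (8.68 to 33.4). Of the 4 peaks with 17 tags, that on chromosome 2 at 394665 to 394867 stood against 3 input tags (106.96-fold, 30.9 to 570). The one on chromosome 4 at 802922 to 803124 stood against 13 input tags (24.68-fold, 11.3 to 55.3), and that on chromosome 27 at 3239667 to 3239869 against 17 (18.87-fold, 9.06 to 39.3). The remaining one, on chromosome 5 at 53340995 to 53341197, stood against 23 input tags (13.95-fold, 6.996 to 27.3). The interval of the 17-tag peak on chromosome 2 lay above those of both chromosome 5 peaks, and all other pairs among these intervals overlapped, so the order of the tallest peaks by fold was mostly not resolved.

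A few higher-tag peaks had a nearly empty input, and with 10 or more ChIP tags their high fold follows from that. At most 3 input tags were found at 10 of them (2.36%), against 141 lower-tag peaks (4.99%). The chromosome 11 peak from 19142041 to 19142243, which lay 19.2 kb before the end of the last listed peak of that chromosome, held 10 ChIP tags, with 0 in the input. A count of 0 allows up to 3 input tags, against which ChIP was at least 62.9-fold higher before counting error in the 10 ChIP tags. The lower end of the exact interval, which includes that error, was 42.3-fold. A peak of chromosome 2 (131753946 to 131754148) combined 11 ChIP tags with 1 input tag, a ratio of 207.62 with an interval of 30.2 to 8937. A peak of chromosome 20 (2448586 to 2448788) combined 13 with 2, and its ratio was 122.68 (27.8 to 1120).

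Higher-tag peaks lay on all 29 chromosomes of the list, 1 to 28 and Z. Their density, taken by classes of chromosome number, was highest on chromosomes 21 to 28. Chromosomes 21 to 28 carried 68 of them at 1.70 per Mb (interval 1.32 to 2.16), chromosomes 11 to 20 carried 95 at 0.727 (0.589 to 0.889), chromosomes 6 to 10 carried 60 at 0.421 (0.321 to 0.542), and chromosomes 1 to 5 carried 198 at 0.328 (0.284 to 0.377). Relative to chromosomes 1 to 5, chromosomes 21 to 28 were 5.18 times as dense in higher-tag peaks (3.88 to 6.86), and 3.72 times as dense in lower-tag peaks (3.28 to 4.21). For chromosomes 11 to 20 the ratios were 2.22 (1.72 to 2.85) for higher-tag and 2.51 (2.28 to 2.75) for lower-tag peaks. The end of the last listed peak stood in for the length of a chromosome. Within the classes single chromosomes differed. Chromosome 16, with 0.448 Mb covered, was the densest of all at 4.46 per Mb, from 2 peaks (0.540 to 16.1). Chromosomes 21 and 24 had 0.606 and 0.800 per Mb, less than the 1.24 of chromosome 17. The surrounding ChIP tags of both kinds of peak moved with these classes. For higher-tag peaks their median was 0.746 per peak width on chromosomes 21 to 28 and 0.590 on chromosomes 1 to 5. For lower-tag peaks it was 0.663 and 0.497. The part of these surrounding tags in the density was not tested.

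As a share of the peaks listed on each chromosome, higher-tag peaks varied less. They made up 17.3% of the listed peaks on chromosomes 21 to 28 (13.7 to 21.4), 11.8% on chromosomes 11 to 20 (9.64 to 14.2), 11.1% on chromosomes 6 to 10 (8.60 to 14.1) and 13.1% on chromosomes 1 to 5 (11.4 to 14.9). Chromosome 27 stood highest, with 17 of its 56 peaks (30.4%, 18.8 to 44.1), and chromosome 28 followed with 12 of 56 (21.4%, 11.6 to 34.4). Without chromosome 27, the share on chromosomes 21 to 28 was 15.1% (11.4 to 19.4) and their density ratio to chromosomes 1 to 5 was 4.47 (3.22 to 6.11). Chromosome 7 had 9 of 113 (7.96%, 3.71 to 14.6). These chromosomes were singled out after their values were seen, and the intervals of all chromosomes except 27 and Z take in the 12.8% of the whole list.

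**Figure D2:**
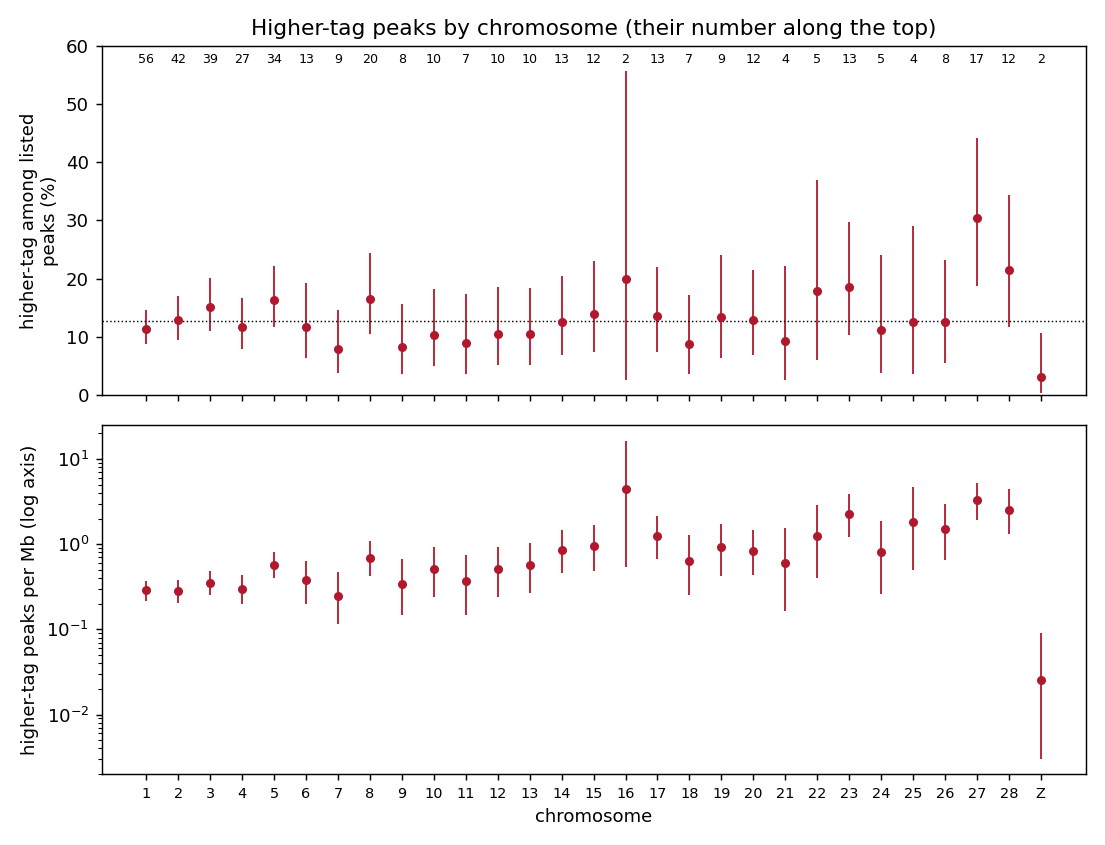
Higher-tag peaks by chromosome, as a percentage of the listed peaks of that chromosome (upper panel, dotted line at the 12.8% of the whole list) and per Mb of covered length (lower panel, log axis). Bars are exact 95% binomial intervals above and Poisson 95% intervals below; chromosome 27 is highest in the upper panel, at 30.4%, and Z is lowest at 3.08%.

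Chromosome Z, the sex chromosome present as a pair in male birds, carried only 2 higher-tag peaks among its 65 listed peaks (3.08%, interval 0.375 to 10.7). The peak at 13524255 to 13524457 had 14 ChIP tags against 7 input tags (37.75-fold, 14.3 to 111), and that at 51361648 to 51361850 had 11 against 10 (20.76-fold, 8.01 to 54.5). Both were more than 1000 kb from any other listed peak. The density of higher-tag peaks on Z was 0.0766 times that of chromosomes 1 to 5 (0.00921 to 0.280), and that of lower-tag peaks 0.361 times (0.274 to 0.467). Input tags at lower-tag peaks of Z had a median of 7, against 10 on chromosomes 1 to 5. The sex of the embryos was not used here, and fewer copies of Z and less binding per copy cannot be told apart.

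On chromosome 27, the window from 3000001 to 4000000 held 19 listed peaks. Of these, 7 were higher-tag peaks, out of 17 on the chromosome, the most higher-tag peaks in any window of 1 Mb. These 7 spanned 384 kb and held 82 ChIP tags. From the lower coordinate upward they held 11, 12, 17, 10, 10, 12 and 10 ChIP tags against 12, 15, 17, 3, 18, 9 and 8 input tags. Their ChIP counts were close to the median of all higher-tag peaks apart from the one with 17, and their input spread on both sides of the median of 13. The next window of chromosome 27 and the window from 2000001 to 3000000 on chromosome 28 held 5 each, among 18 and 15 listed peaks. On chromosome 20, the window from 5000001 to 6000000 also had 19 listed peaks, of which 4 were higher-tag. Higher-tag peaks made up 12.8% of the whole list. Of 1012 windows, 300 held a higher-tag peak, and 220 of those held a single one.

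Peaks with 13 or more tags had a larger share on chromosomes 1 to 5 than peaks with 10 to 12. Of the 76 peaks with 13 or more tags, 19 lay on chromosomes 11 and above (25.0%, interval 15.8 to 36.3) and 45 on chromosomes 1 to 5 (59.2%, 47.3 to 70.4). Of the 347 peaks with 10 to 12 tags, 144 lay on chromosomes 11 and above (41.5%, 36.3 to 46.9) and 153 on chromosomes 1 to 5 (44.1%, 38.8 to 49.5). The division at 13 tags was chosen after the values were seen and the difference was not tested.

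With 0.424 higher-tag peaks per Mb of covered length, wide gaps between them follow from their number. Whether they lay closer together or farther apart than an even spread was not tested. Consecutive higher-tag peaks on a chromosome started a median of 1069 kb apart (quartiles 307 and 2788 kb, 394 gaps), and the widest gap, 37.8 Mb, separated the pair on Z. Of the gaps, 7 were within 10 kb, which formed 7 pairs and no larger group. The closest pair was on chromosome 5, where peaks at 50383934 to 50384136 and 50384305 to 50384507 started 371 bp apart and held 12 ChIP tags each, against 18 and 11 input tags. This is nearer than the 406 bp that the file header gives as the minimum distance, and the header also states that peaks were re-centred on the highest pile-up.

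The pair with most tags was on chromosome 23, where the 19-tag peak was followed 4454 bp on by one at 2504619 to 2504821 with 11 tags. On chromosome 2, peaks at 32222877 to 32223079 and 32225712 to 32225914 held 12 tags each, against 21 and 9 input tags. On chromosome 4, peaks at 366819 to 367021 and 370570 to 370772 held 13 and 11 tags, against 21 and 11 input tags. The other three pairs were on chromosome 28 (from 2609353), chromosome 2 (from 2061313) and chromosome 27 (from 3313328), with 23, 22 and 20 tags in sum. Of the 14 peaks in pairs, 13 had more ChIP tags in their surroundings than the median higher-tag peak, and their median was 0.933 per peak width. The 10 kb of surroundings can take in the tags of a close partner, so this count does not stand apart from the pairing.

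Measured to any listed peak, the nearest neighbour of a higher-tag peak started a median of 48.7 kb away (interval 41.4 to 58.9), and that of a lower-tag peak 61.5 kb away (57.6 to 66.5). A neighbour within 10 kb was found for 67 higher-tag peaks (15.8%, 12.5 to 19.7), 355 lower-tag peaks (12.6%, 11.4 to 13.8) and 39 of the 69 high-input peaks (56.5%, 44.0 to 68.4). For 50 of the 67, that neighbour was a lower-tag peak, for 13 another higher-tag peak (19.4%, 10.8 to 30.9) and for 4 a high-input peak. For the 355 lower-tag peaks it was a lower-tag peak for 304 and a higher-tag peak for 51 (14.4%). The whole list was 85.2% lower-tag, 12.8% higher-tag and 2.08% high-input. At any distance, the nearest peak was another higher-tag peak for 54 of the 423 (12.8%), the share of the list. Within chromosome classes the gap between the kinds of peak was seen on chromosomes 1 to 5, with medians of 69.8 kb for higher-tag and 107 kb for lower-tag peaks, and was smaller on chromosomes 6 to 10 (53.0 and 60.5 kb). It was not seen on chromosomes 11 to 20, where the medians were 39.4 and 37.1 kb, or on chromosomes 21 to 28, where they were 33.5 and 30.4 kb, again for higher-tag and lower-tag peaks. Among chromosomes 1 to 10 taken singly, 5, 6, 7 and 10 had the larger median for higher-tag peaks. On chromosome 5 the medians were 60.9 kb for higher-tag and 54.7 kb for lower-tag peaks.

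**Figure D3:**
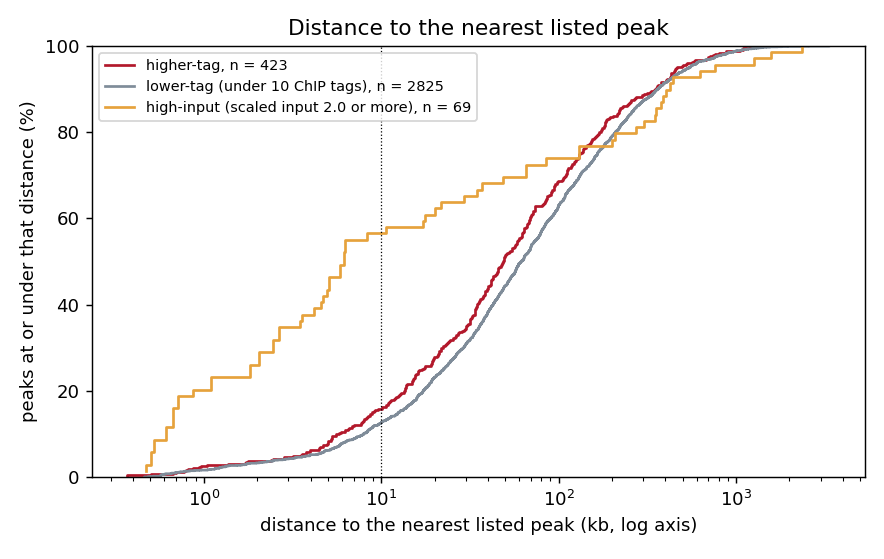
Cumulative percentage of peaks (vertical axis) whose nearest listed peak starts at or under a given distance (horizontal axis, kb, log scale), for 423 higher-tag, 2825 lower-tag and 69 high-input peaks. At the dotted line at 10 kb the curves stand at 15.8%, 12.6% and 56.5%, so the higher-tag curve runs close to that of the lower-tag peaks and far from the high-input one.

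The focus ratio is the share of a peak's tags placed, by strand and side, as tags around a single point of binding would be, so a value near 1 describes a sharp peak. Its median was 0.824 at higher-tag peaks (interval 0.812 to 0.833, range 0.526 to 0.944) and 0.800 at lower-tag peaks (0.778 to 0.800, range 0.417 to 0.929). High-input peaks had a median of 0.739 (0.714 to 0.778). The highest ratio belonged to the peak on chromosome 4 at 13835612 to 13835814, with 16 ChIP tags against 3 input tags. The lowest belonged to the peak on chromosome 27 at 4481089 to 4481291, with 10 ChIP tags against 17 input tags.

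Taken by tag number, the median focus ratio was 0.778 at 6 and at 7 tags, 0.800 at 8, 0.818 at 9, 0.833 at 10 and 0.812 at 11 and at 12 tags, all below the input limit. With so few tags the ratio moves in coarse steps, and the highest ratio reached was 0.900 at 6 tags and 0.933 at 12. A ratio of 0.9 or more was found at 86 higher-tag peaks (20.3%, 16.6 to 24.5) and 213 lower-tag peaks (7.54%, 6.59 to 8.58), and a ratio under 0.7 at 53 (12.5%, 9.53 to 16.1) and 406 (14.4%, 13.1 to 15.7), in the same order. Since both the ratio and the choice of peaks rest on tags of the same library, these differences were not tested.

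Among higher-tag peaks the focus ratio was lower where more ChIP tags lay around the peak. Spearman's rho between the ratio and the surrounding tags was -0.38 across the 423 peaks (Pearson's r -0.37) and -0.19 across the 2825 lower-tag peaks, both taken from the same ChIP library. In the lowest quartile of surrounding tags the median ratio was 0.857 at 75 higher-tag peaks (interval 0.846 to 0.909) and 0.818 at 799 lower-tag peaks (0.800 to 0.833). In the highest quartile it was 0.769 at 145 higher-tag peaks (0.750 to 0.786) and 0.778 at 661 lower-tag peaks. The 11 higher-tag peaks with a listed neighbour within 1 kb had a median of 0.722 (0.600 to 0.857), against 0.833 for the 132 with none within 100 kb (0.800 to 0.857).

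**Figure D4:**
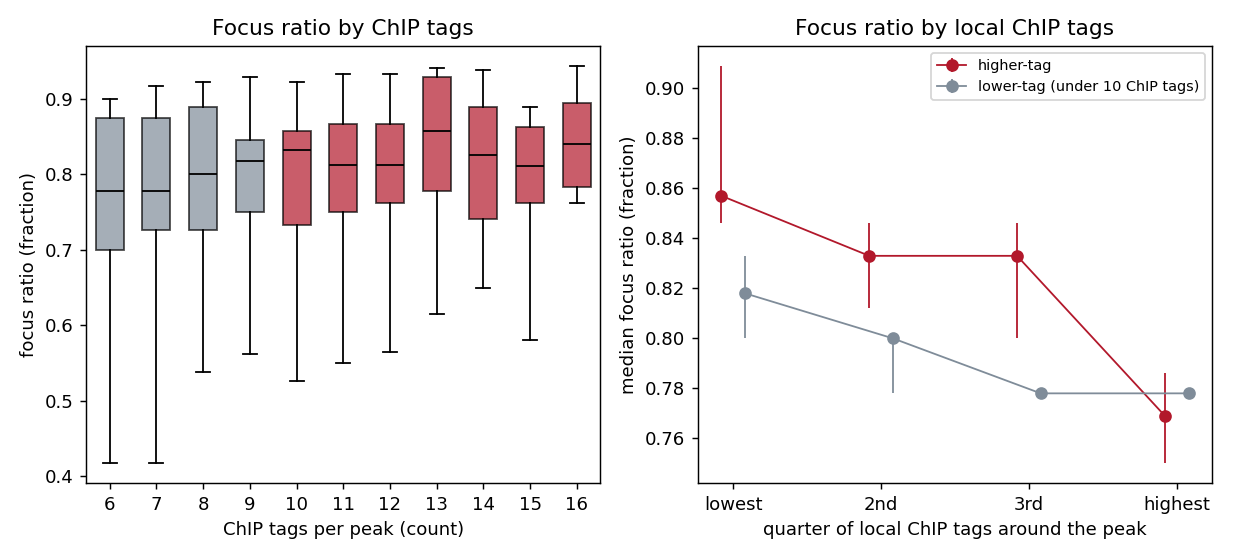
Left, focus ratio (fraction) of higher-tag (red) and lower-tag (grey) peaks by number of ChIP tags, as boxes of the median and quartiles with whiskers to the lowest and highest value. Right, median focus ratio with its 95% interval by quartile of the ChIP tags surrounding the peak, 0.857 in the lowest and 0.769 in the highest for higher-tag peaks.

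Along the chromosomes, the shares of higher-tag and lower-tag peaks in the outer and middle parts had overlapping intervals. The outer 10% at either end of the covered lengths held 102 higher-tag peaks (24.1%, interval 20.1 to 28.5) and 706 lower-tag peaks (25.0%, 23.4 to 26.6), where an even spread would put 20% in all. High-input peaks had 26 of 69 there (37.7%, 26.3 to 50.2). Covered lengths ended at the last listed peak of each chromosome, which therefore fell in the last 10% by construction. The difference from 20% was not tested. The middle 20% held 86 higher-tag peaks (20.3%, 16.6 to 24.5) and 545 lower-tag peaks (19.3%, 17.9 to 20.8). On chromosomes 1 to 5 the share in these outer parts was 25.3% for higher-tag and 25.4% for lower-tag peaks.

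In the first 100 kb of chromosomes lay 5 higher-tag peaks (1.18%, 0.385 to 2.74), against 19 lower-tag peaks (0.673%, 0.405 to 1.05) and 10 high-input peaks (14.5%, 7.17 to 25.0). They were on chromosomes 1, 14, 15, 16 and 26. That on chromosome 1 at 8201 to 8403 had 15 ChIP tags against 14 input tags, with a high-input peak 6.23 kb away. That on chromosome 26 at 80415 to 80617 had 15 against 10. At the other end, chromosome 16 had a higher-tag peak at 446901 to 447103, 1.38 kb before the last listed end, with 10 ChIP tags against 32 input tags. On some chromosomes, such as 7, 10 and 12, the last listed peak was itself a higher-tag peak.

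**Figure D5:**
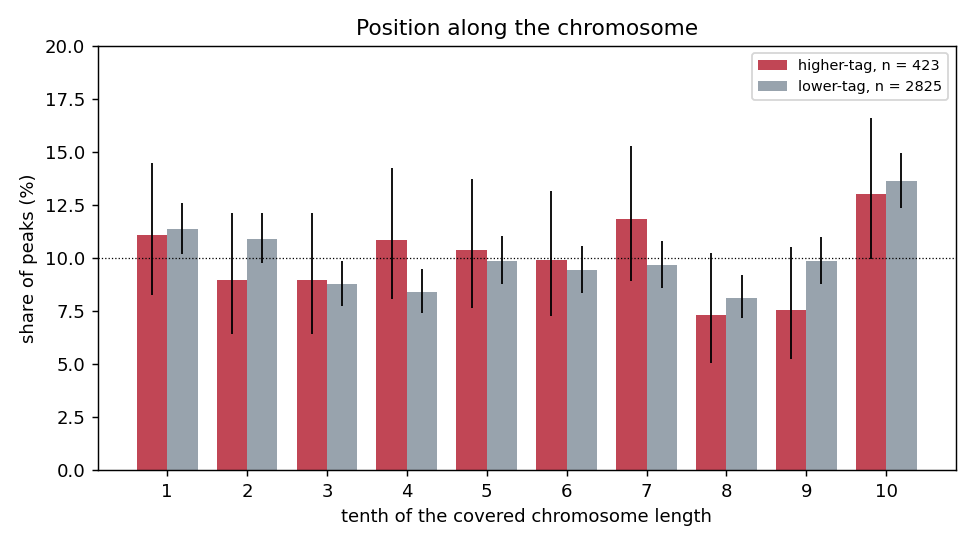
Share of 423 higher-tag and 2825 lower-tag peaks (vertical axis, %) in 10 equal parts of the covered chromosome length (horizontal axis), with exact 95% binomial intervals and a dotted line at an even 10%. Both kinds of peak are highest in the last part, which holds 55 higher-tag peaks (9.95 to 16.6%) and 385 lower-tag peaks (13.6%), and the intervals of higher-tag peaks take in the value of the lower-tag peaks in all 10 parts. The covered length ends at the last listed peak of each chromosome, which therefore always falls in the last part.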

How the data were processed

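One peak list of a FOXO1 ChIP library against an input library was used. The submitters' processing notes name Bowtie2 2.1.0 and HOMER 4.7. The authors ran HOMER findPeaks per the file headers in factor style (peak size 203 bp, false discovery rate 0.001), asking for 4-fold over input and over the local 10 kb at a p of 0.0001. Per the file headers, the deposited total tags are ChIP tag counts, the deposited focus ratio is a fraction, the deposited score is a tag score by the authors, and normalized and control tags are signal scaled by the authors. Folds over input, over the local region and for clonality are ratios by the authors, and the deposited p-values are unadjusted Poisson p-values. The build is not given in the sources used here.

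Input tags were recovered as total tags divided by fold, in steps of 0.053. Of the 3317 quotients, 99.8% came within 0.1 of a whole tag, and 0.5 of a step was taken for 0 tags. The width over which the caller counted input tags is not given, so they may not all lie within the 203 bp of the peak. Fold and share intervals are exact (Clopper-Pearson), intervals of medians use order statistics, distances run from start to start. On simulated counts for 3317 peaks, 97.7% of fold intervals held the true fold. The simulation gave all peaks the same fold and applied none of the limits by which real peaks were listed and chosen. It therefore does not show how often the intervals of chosen peaks hold the true fold. Software was matplotlib 3.10.9, pandas 2.3.3, scipy 1.17.1, numpy 2.4.6 and Python 3.11.15.

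The peaks and lists were chosen with earlier results of these data known. Peaks were named by rule: the 20 with most tags (ties by fold), those with fewest input tags, those at the limits, the extreme focus ratios and pairs within 10 kb. Chromosomes, windows, ends and further peaks were picked after their values were seen. The planned sequences and genes need a genome of the file's build and were not analysed here.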

Additional observations from a re-analysis of the deposited data

How the results depend on the processing

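Of 67 alternatives over 7 values, 50 stayed within the counting interval of the value (within 1.5 times for the number of peaks). A limit on input at the list's median and leaving out peaks whose score is below their tags were chosen after seeing the data. The number of peaks was 141 at 12 or more tags, 28 at 15 or more and 154 with input at most at the list's median. The share on chromosomes 11 and above was 34.8% at 12 or more tags and 25.0% at 15 or more, against 38.5% of the 423. The density there over that of chromosomes 1 to 5 came to 2.31 at 12 or more and 1.38 at 15 or more (interval 0.486 to 3.45, 28 peaks), against 2.91 at 10 or more. A neighbour within 10 kb was found for 21.4% at 15 or more tags and 21.5% with no input limit, and a neighbour within 5 kb for 8.27% and within 50 kb for 51.3%. The outer 10% at either end held 28.6% at 15 or more tags, and the outer 5% at either end 14.4% of the 423. The median fold was 17.53 at 12 or more tags, 18.315 at 15 or more, 18.87 with an input limit of 1.0 or with Bonferroni adjustment of the p over input, and 25.95 with input at most at the list's median; a lower input limit raises it by construction. The median focus ratio was 0.812 to 0.833 under the alternatives tried. No paired analysis was possible because ChIP and input are single libraries. At 10 to 21 tags, most single peaks could not be told from one another in height.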

Other observations

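Chromosomes 15 and 28 differed in how sharp their higher-tag peaks were, and both were picked after their values were seen. On chromosome 15 the 12 higher-tag peaks had a median focus ratio of 0.9025 (range 0.667 to 0.923), and the 74 lower-tag peaks one of 0.778. On chromosome 28 the 12 higher-tag peaks had a median of 0.7165 (range 0.650 to 0.857), and the 42 lower-tag peaks one of 0.800. Surrounding ChIP tags at the higher-tag peaks had a median of 0.715 per peak width on chromosome 15 and 0.746 on chromosome 28. Neither the difference in focus ratio nor the part of these tags in it was tested.

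The most surrounding tags of any higher-tag peak were on chromosome 1, where the peak at 1969970 to 1970172 had 2.51 ChIP tags per peak width around it and 35 input tags.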
